A study of Homo sapiens with 2 samples.

Results

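The gene group described is 36 genes of glycolysis and of the response to low oxygen, taken by symbol from a list chosen for known function, and 32 of them were measured among 18377 genes in all. Gene expression was compared between 2 samples of the human cell line K562, established from a leukaemia and driven by BCR-ABL1, a fusion kinase. The first sample was grown with erythropoietin (EPO), the hormone that drives red cell formation. The second carries no mention of EPO in its labels and is read, from the growth protocol, as the culture that had none. Both received imatinib, an inhibitor of the fusion kinase, at 2 µM for 6 h, so no untreated cells enter the comparison. Neither the dose nor the duration of EPO is given in the sources used here, and no label names a treatment with low oxygen. Each group is 1 Affymetrix Gene ST array, which reads total RNA with probes along the whole transcript. Without replicates there is no error, test or p-value, and precision is limited by the number of arrays.

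Glycolysis splits glucose into pyruvate in the cytosol, and lactate dehydrogenase then reduces pyruvate to lactate. Hypoxia-inducible factor (HIF) is a pair of proteins, an oxygen-sensitive alpha subunit such as HIF-1 alpha and the stable partner ARNT. With oxygen, the prolyl hydroxylases encoded by EGLN genes mark the alpha subunit for destruction. Without it, HIF binds short DNA elements near genes for glucose uptake, most glycolytic steps, blood vessel growth and EPO itself. Leukaemia cells driven by BCR-ABL1 are known for high glucose uptake, which imatinib lowers.

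Every value is a deposited log2 value, a deviation from a baseline that the authors subtracted from each probe, so it gives no transcript abundance. No source used here states the base of the logarithm, which is read as 2. The difference, with EPO minus without EPO, cancels the baseline. A gene was called at a difference of at least 1 on the log2 scale, which is 2-fold. Across all genes the median difference was -0.047. It was 0.50 in 291 genes of cellular machinery, such as proteasome, respiratory chain and spliceosome genes, and -0.32 in 460 genes of families that most cells leave silent, such as olfactory receptors. Since these classes stood apart, each value is as deposited, and the text says where a member, a list or another named gene changed its side of 0 with a class median subtracted.

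The measured members had a median difference of 0.34, which became -0.16 with the machinery median subtracted and 0.66 with the silent median subtracted. Of the 32, 3 (9.38%) passed 2-fold on the side of EPO, against 6.19% of all genes and 14.8% of machinery genes. These were PGK1, HIF1A and LDHB. None was 2-fold lower, against 0.898% of all genes. At 1.5-fold, 12 members (37.5%) were higher with EPO, against 18.1% of all genes and 41.6% of machinery genes. Another 2 members (6.25%), ANKRD37 and ADM, were 1.5-fold lower, against 4.65% of all genes and 1.72% of machinery genes.

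The side of 0 held under every scaling in 17 members. SLC2A1, HK1, GPI, PFKP, PGK1, ENO1, LDHA, LDHB, PFKFB4, HIF1A, P4HA1, P4HA2 and KDM3A, 13 in all, stayed above 0 as deposited and with the median of all genes, machinery genes or silent families subtracted. HK2, PKM, ADM and ANKRD37, 4 in all, stayed below 0. The other 15 changed side under at least 1 scaling. These counts restate the size of the difference. Staying above 0 means a difference above the machinery median of 0.50, and staying below 0 one below the silent median of -0.32. Above the machinery median lay 3938 of all 18377 genes, 145 of 291 machinery genes and 13 of 32 members. Above the silent median lay 14844 of all genes and 28 of 32 members. Both classes were chosen with earlier results of these data known and are no independent reference.

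**Figure D1:**
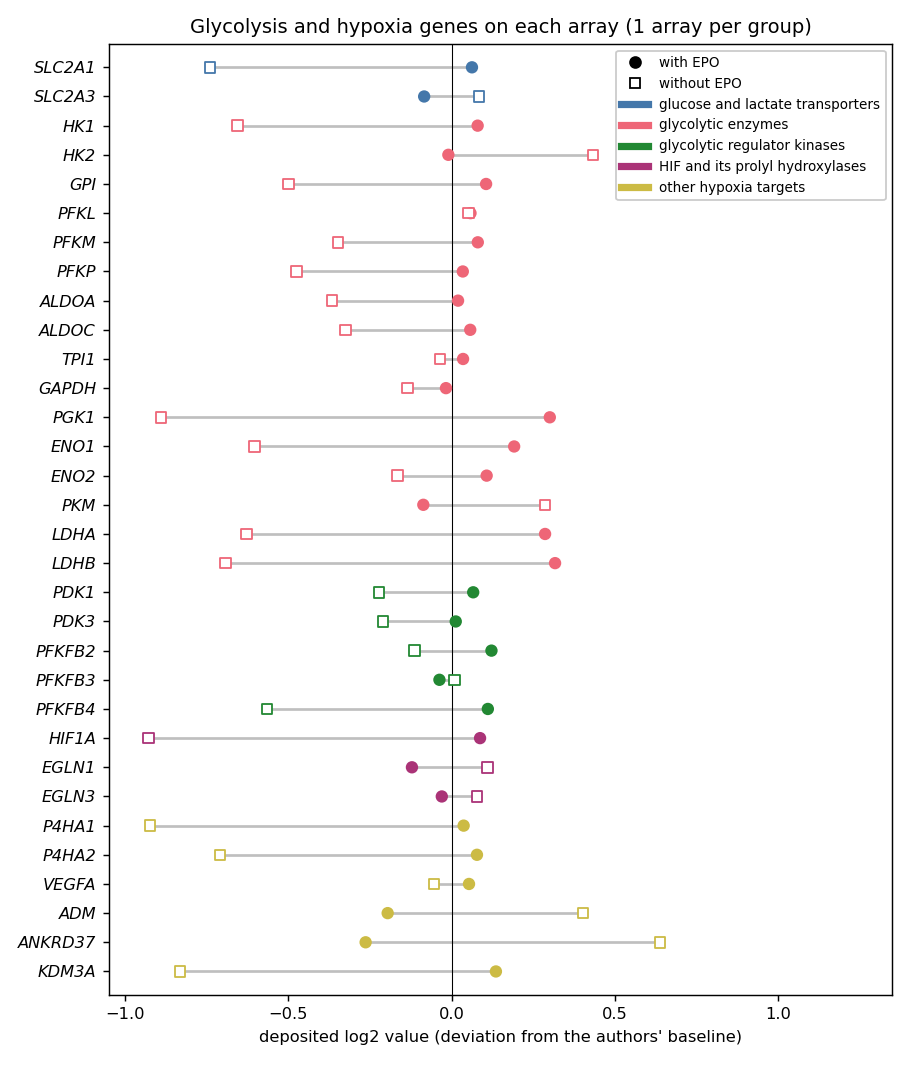
Deposited log2 value of the 32 measured members on the array with EPO (filled circles) and the array without EPO (open squares), coloured by role. The values with EPO lie between -0.26 and 0.32, whereas those without EPO run from -0.93 to 0.64.

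The arrays did not lie equally far from the baseline. How the baseline was set is not given, so neither array can be said to have moved from it. With EPO the members lay between -0.26 (ANKRD37) and 0.32 (LDHB). Without EPO they lay between -0.93 (HIF1A) and 0.64 (ANKRD37). The value without EPO was the farther from the baseline in 26 of 32 members (81.2%), close to the 82.6% of all genes. The arrays lay on opposite sides of the baseline in 30 of 32 members, PFKL and GAPDH being the exceptions, and in 83.2% of all genes. The part of the centring in these opposite sides was not tested. In 3 members (SLC2A3, TPI1 and VEGFA) the 2 values mirrored each other around the baseline within 1e-05, as in 2.19% of all probes.

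A probe here means 1 entry of the deposited values, not 1 physical probe, since the array reads a transcript with probes along its length. Each measured member had 1 such entry, so no member has a second reading. Among 685 other genes with several probes, the highest and lowest probe lay a median of 0.18 apart in the difference, and the 95th percentile was 1.16. This spread describes genes with several entries within the same pair of RNA samples and is no measured error of the members. It covers no error between cultures. SLC16A1, SLC16A3 and CA9 were not analysed here. PGAM1 had only probes shared with PGAM4.

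Promoter sequences are shown for 2 of the members with the largest positive differences in the pathway, PGK1 and LDHA, and for the members with the lowest difference among the enzymes, HK2, and among the hypoxia targets, ANKRD37, because all 4 are known HIF targets and lay on opposite sides of 0. Each window runs from 250 bases before to 50 bases after a RefSeq transcript start (GRCh38.p14), and all 4 genes lie on the plus strand. The windows are chrX:78103998-78104297 for PGK1, chr11:18394313-18394612 for LDHA, chr2:74834920-74835219 for HK2 and chr4:185396591-185396890 for ANKRD37. LDHA and HK2 have 2 windows each in the table, and the one with more matches is shown. Capitals mark the core of the HIF element, ACGTG or GCGTG, on either strand (CACGT or CACGC when read on the printed strand). A CACGTG holds a match on each strand and is also the E-box bound by other factors.
PGK1: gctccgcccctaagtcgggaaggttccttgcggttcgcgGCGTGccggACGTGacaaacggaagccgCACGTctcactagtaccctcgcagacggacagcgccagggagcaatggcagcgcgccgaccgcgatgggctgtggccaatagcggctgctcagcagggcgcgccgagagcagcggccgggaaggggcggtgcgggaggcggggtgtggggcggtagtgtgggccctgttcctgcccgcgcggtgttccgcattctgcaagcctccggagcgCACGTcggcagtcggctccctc
LDHA: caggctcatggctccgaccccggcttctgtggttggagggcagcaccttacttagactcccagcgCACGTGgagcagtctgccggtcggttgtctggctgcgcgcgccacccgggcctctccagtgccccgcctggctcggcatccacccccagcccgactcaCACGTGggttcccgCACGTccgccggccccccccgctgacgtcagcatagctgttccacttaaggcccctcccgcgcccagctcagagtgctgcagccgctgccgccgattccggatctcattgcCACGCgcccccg
HK2: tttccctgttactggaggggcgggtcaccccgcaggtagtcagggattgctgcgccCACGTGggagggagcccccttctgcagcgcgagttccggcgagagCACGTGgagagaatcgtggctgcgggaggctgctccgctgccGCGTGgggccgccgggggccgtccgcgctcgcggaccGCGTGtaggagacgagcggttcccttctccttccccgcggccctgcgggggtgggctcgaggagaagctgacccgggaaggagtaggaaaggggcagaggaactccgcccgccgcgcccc
ANKRD37: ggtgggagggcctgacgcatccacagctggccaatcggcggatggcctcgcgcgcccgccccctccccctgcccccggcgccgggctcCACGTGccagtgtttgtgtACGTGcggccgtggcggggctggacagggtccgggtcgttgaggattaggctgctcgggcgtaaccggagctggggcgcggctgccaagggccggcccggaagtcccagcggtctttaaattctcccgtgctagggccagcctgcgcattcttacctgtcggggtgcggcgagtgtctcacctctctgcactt

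Counting both strands, PGK1 holds 4 matches, LDHA 6, HK2 6 and ANKRD37 3, so both the higher and the lower genes carry the letters. These counts are not typical of the members, since most member windows hold 0 or 1 match. LDHB, whose difference of 1.01 was larger than that of LDHA (0.91), is not shown and holds 1 match. Among the 32 members in the promoter table, 29 had a match in at least 1 window, against 52.4% of the 27305 genes in the table and 69.2% of its machinery genes. Of 60 member windows, 66.7% had a match, against 48.4% of all windows of 300 bases. Of the measured members, 11 of 12 members at least 1.5-fold higher with EPO had a match, 10 of 10 between, and 6 of 7 below 0. SLC16A1, SLC2A3, PFKFB2 and VEGFA had no entry in the table. A match is a description of letters and no evidence of binding.

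Of the glucose transporters, SLC2A1, which encodes GLUT1, the main carrier of blood cells, stood at 0.062 with EPO and -0.74 without it. It was higher with EPO by 0.80 on the log2 scale (1.74-fold). SLC2A3, which encodes the high-affinity carrier GLUT3, stood at -0.084 and 0.084, a difference of -0.17 that turned positive (0.16) with the silent median subtracted. SLC2A1 thus lay 0.97 above SLC2A3 in the difference between the arrays. A constant shift between the arrays cancels in such a gap by construction. The gene classes did not share 1 shift, with medians of 0.50 for machinery genes and -0.32 for silent families, so the gap is not free of such differences.

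The 16 measured glycolytic enzymes had a median difference of 0.41 (-0.091 with the machinery median subtracted), and 14 lay above 0, against 45.4% of all genes and 80.4% of machinery genes. Hexokinase, which traps glucose in the cell, had isozymes on opposite sides of 0. HK1, the constitutive form, stood at 0.080 with EPO and -0.66 without it, a difference of 0.74 (1.67-fold higher with EPO). HK2, the inducible form, stood at -0.0099 and 0.43, a difference of -0.44 (1.36-fold lower with EPO). The gap between the isozymes was 1.18.

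GPI, the isomerase of the next step, stood at 0.11 and -0.50, which makes it 1.52-fold higher with EPO. Phosphofructokinase commits the sugar to glycolysis, and its 3 genes also differed. PFKP, the platelet form, stood at 0.034 and -0.47 (difference 0.51), and PFKM, the muscle form, at 0.080 and -0.35 (difference 0.43). PFKL, the liver form, stood at 0.058 and 0.052, a difference of 0.0055 and the smallest in size of all members. With the machinery median subtracted, PFKM turned to -0.071 and PFKL to -0.49, whereas PFKP remained at 0.011.

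The aldolases, which split the sugar into a pair of trioses, had like values. ALDOA stood at 0.020 and -0.37 and ALDOC at 0.057 and -0.33, and their differences of 0.39 and 0.38 were 0.0035 apart. Both lay below 0 once the machinery median was subtracted. Triose phosphate isomerase (TPI1) stood at 0.035 and -0.035, a difference of 0.070. GAPDH, the first enzyme of the energy-yielding steps and a common reference gene, stood at -0.017 and -0.14, a difference of 0.12. Among machinery genes TPI1 ranked at percentile 25.4 and GAPDH at 27.5, and both lay below 0 once the machinery median was subtracted.

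Of the enzymes after GAPDH, PGK1, ENO1, LDHA and LDHB had differences between 0.80 and 1.19. The highest before GAPDH was HK1 at 0.74. ENO2 (0.27) and PKM (-0.37) also come after GAPDH and lay lower. PGK1, the kinase that makes the first ATP of the pathway, stood at 0.30 with EPO and -0.89 without it. Its difference of 1.19 (2.28-fold higher with EPO) was the largest of the members, at percentile 97.1 of all genes and 93.1 of machinery genes, and 1.07 above that of GAPDH. It was 0.69 with the machinery median subtracted. The 5 probes shared by the mutase PGAM1 and its near-identical copy PGAM4 stood between 0.22 and 0.24 with EPO and between -0.63 and -0.55 without it. Their differences ran from 0.77 to 0.87, a gap of 0.10. Because the genes are near-identical, the 5 probes are not independent readings. These readings cannot be assigned to either gene.

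ENO1, the enolase of most tissues, stood at 0.19 and -0.60, a difference of 0.80 (1.74-fold). ENO2, the neuronal enolase, stood at 0.11 and -0.17, a difference of 0.27 that lay below 0 once the machinery median was subtracted. PKM, the pyruvate kinase of most tissues, stood apart from its neighbours in the pathway at -0.087 with EPO and 0.29 without it. Its difference of -0.37 (1.29-fold lower with EPO) lay 1.17 below that of ENO1 and 1.29 below that of LDHA. With the silent median subtracted it was -0.048, close to 0.

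Both lactate dehydrogenase subunits were higher with EPO under every scaling. LDHA, a HIF target that favours lactate formation, stood at 0.29 and -0.63, a difference of 0.91 (1.89-fold). LDHB, the heart subunit, stood at 0.32 and -0.69, a difference of 1.01 (2.01-fold). The subunits were 0.094 apart, within the median gap between probes of a gene, which is no measured error of the members. PGK1, LDHA and LDHB had the 3 highest values of all members on the array with EPO.

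**Figure D2:**
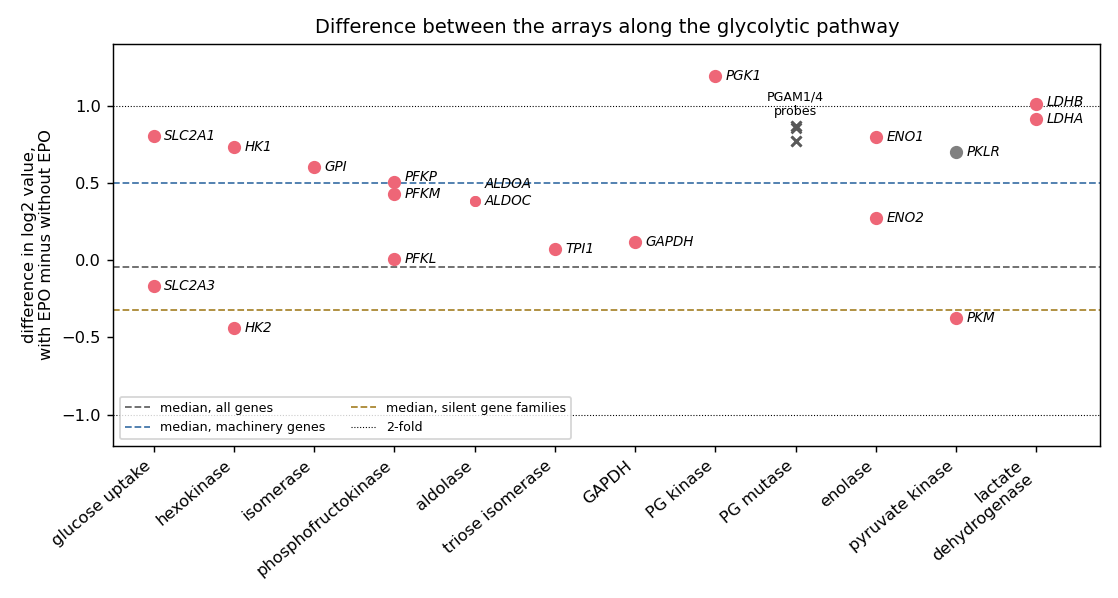
Difference between the arrays (log2, with EPO minus without EPO) for glucose transporters and each glycolytic step in pathway order. Red points are members, the grey point is PKLR, crosses are the 5 probes shared by PGAM1 and PGAM4, dashed lines are medians of 3 gene classes, and dotted lines mark 2-fold. PGK1 (1.19) is the highest point and HK2 (-0.44) and PKM (-0.37) are the lowest.

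Isozymes listed as those of other tissues, which share these reactions, had a median of -0.21 over 15 measured of 17. This turned to 0.12 with the silent median subtracted. The name of the list is loose, since PKLR is also known from red cells and K562 is known to express erythroid markers. As deposited 2 of the 15 lay above 0, against 45.4% of all genes, and with the silent median subtracted 9 did. None was past 2-fold as deposited. The monocarboxylate carrier SLC16A8 stood at -0.58 and the liver glucose carrier SLC2A2 at -0.47, and both stayed below 0 under each scaling. PKLR, the pyruvate kinase of liver and red cells, was the highest at 0.70 (0.046 with EPO and -0.66 without it), 1.08 above PKM, and was still above 0 (0.21) with the machinery median subtracted.

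The regulatory kinases were within 2-fold. PFKFB enzymes set the level of the sugar phosphate that activates phosphofructokinase. PFKFB4 stood at 0.11 and -0.56, a difference of 0.68 (1.60-fold higher with EPO). PFKFB2 had a difference of 0.24 and PFKFB3, the inducible form, one of -0.047 from values of -0.037 and 0.0095. PFKFB4 therefore lay 0.72 above PFKFB3. PDK1 and PDK3, which switch off pyruvate dehydrogenase, had differences of 0.29 and 0.22, 0.066 apart. PFKFB2, PDK1 and PDK3 lay below 0 once the machinery median was subtracted, and PFKFB3 turned positive with the silent median subtracted. Genes of pyruvate entry into mitochondria include the dehydrogenase on which PDK1 and PDK3 act, its other regulators and the pyruvate carriers. They had a median of 0.78 over 11 measured of 12, with 3 at least 2-fold higher, against 6.19% of all genes, and 0 lower. The 3 were the dehydrogenase subunits PDHA1 at 1.14, PDHB at 1.11 and DLAT at 1.04. With the machinery median subtracted the median was 0.28 and none of the 3 was past 2-fold, at 0.64, 0.62 and 0.54.

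HIF1A, which encodes HIF-1 alpha, stood at 0.087 with EPO and -0.93 without it, the lowest value of any member on that array. Its difference was 1.02 (2.02-fold higher with EPO), at percentile 94.2 of all genes and 86.3 of machinery genes, and 0.52 with the machinery median subtracted. The transcript does not measure the protein, which is controlled by its breakdown. The hydroxylases that mark it differed less. EGLN1, the main oxygen sensor, stood at -0.12 and 0.11, a difference of -0.23, and EGLN3, itself a HIF target, at -0.030 and 0.078, a difference of -0.11. Both turned positive with the silent median subtracted. HIF1A lay 1.25 above EGLN1.

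Other regulators of HIF had a median of 0.63 over 13 measured of 14 (0.13 with the machinery median subtracted), and 1 was at least 2-fold higher with EPO, against 6.19% of all genes. That gene was CUL2, the scaffold of the ligase that destroys HIF-1 alpha, at 1.44, and it was no longer past 2-fold (0.94) with the machinery median subtracted. ARNT, the partner subunit, stood at 0.91 and the coactivator CREBBP at 0.83. VHL, which recognises the marked subunit, stood at 0.70 and CITED2, a HIF-induced inhibitor of HIF, at -0.69, both named after their values were seen. CUL2, ARNT, CREBBP, VHL and CITED2 kept their side of 0 under each scaling. Of other genes in this list, also named after their values were seen, ELOC stood at 0.71, RBX1 at -0.0059 and ELOB at -0.27. RBX1 and ELOB turned positive with the silent median subtracted.

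The hypoxia targets outside glycolysis split into high and low genes. KDM3A, a histone demethylase, stood at 0.14 with EPO and -0.83 without it, a difference of 0.97 (1.96-fold). P4HA1, a subunit of the enzyme that hydroxylates collagen, stood at 0.037 and -0.92, a difference of 0.96 (1.95-fold). Its relative P4HA2 stood at 0.078 and -0.71, a difference of 0.79 (1.73-fold), and the pair was 0.17 apart. All 3 were low on the array without EPO and near the baseline with EPO.

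ANKRD37, an ankyrin repeat gene used as a marker of HIF activity, showed the reverse. It stood at -0.26 with EPO and 0.64 without it, the lowest member on the former array and the highest on the latter. Its difference of -0.90 (1.87-fold lower with EPO) lay at percentile 1.18 of all genes. ADM, which encodes the vessel-dilating peptide adrenomedullin, stood at -0.20 and 0.40, a difference of -0.60 (1.51-fold lower with EPO) at percentile 4.31 of all genes. With the machinery median subtracted they stood at -1.40 and -1.10, and with the silent median subtracted at -0.58 and -0.27. They were the 2 members (6.25%) past 2-fold with the machinery median subtracted. With that subtraction the hypoxia target ANGPTL4 (-1.08, percentile 4.82 of all genes) was also 2-fold lower, and SLC2A2 (-0.96, percentile 9.14) was not. The share of all genes 2-fold lower thus lay between 4.82% and 9.14%, a range that holds the share of members. VEGFA, the vessel growth factor, stood at 0.053 and -0.053, a difference of 0.11 that turned to -0.39 with the machinery median subtracted.

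Further HIF targets, 28 measured of 30, also lay on both sides of 0, with a median of 0.14 (-0.36 with the machinery median subtracted) and differences from -0.85 to 1.58. ERO1A, an oxidase of protein folding, was 2.99-fold higher with EPO at 1.58, and it stayed past 2-fold (1.08) with the machinery median subtracted. It was 1 gene of 28, against 6.19% of all genes. The mitophagy gene BNIP3L stood at 0.76, and its relative BNIP3, named after its value was seen, at 0.073, or -0.43 relative to the machinery median. HILPDA, a lipid droplet gene, stood at -0.85, and the lipase inhibitor ANGPTL4, named after its value was seen, at -0.58. BNIP3L, HILPDA and ANGPTL4 kept their side of 0 under each scaling.

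**Figure D3:**
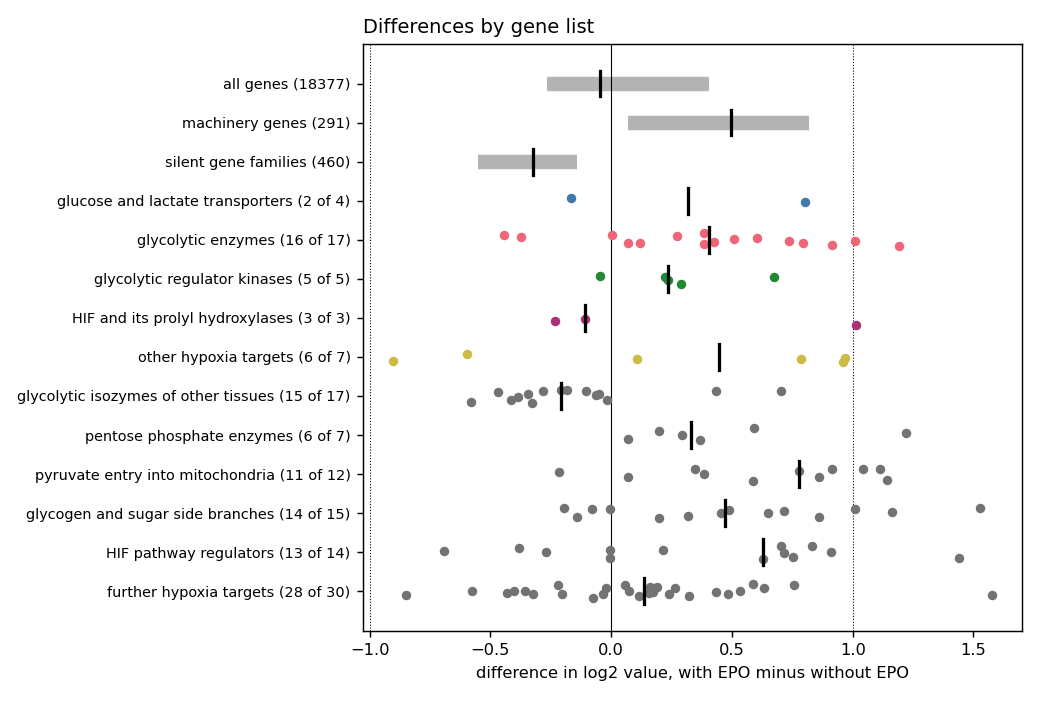
Difference between the arrays (log2, with EPO minus without EPO) for each gene of the 5 groups of members (coloured) and 6 further lists (grey), with the number measured in parentheses. Black ticks are medians, grey bars span the middle 50% of 3 classes of genes, and dotted lines mark 2-fold. Isozymes of other tissues lie mostly below 0, and hypoxia targets lie on both sides.

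Set side by side, the 16 glycolytic enzymes had a median difference of 0.41 and the 16 other measured members one of 0.23. Each group had 6 of 16 members at least 1.5-fold higher with EPO, against 18.1% of all genes and 41.6% of machinery genes. The 2 members 1.5-fold lower both belonged to the other group, against 4.65% of all genes and 1.72% of machinery genes. With the machinery median subtracted the medians were -0.091 and -0.27, and with the silent median subtracted 0.73 and 0.55. With 1 array per group this ordering has no test.

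Markers could not check the cell type, because centred values hold no levels. Erythroid markers, which K562 is known to express, had a median difference of 0.18 over 6 measured of 7. This turned to -0.32 with the machinery median subtracted. The medians were -0.34 for T and B cell markers, -0.040 for epithelial and stromal markers and -0.24 for granulocyte and monocyte markers, each over 6 genes. With the silent median subtracted, the epithelial and stromal median turned to 0.28 and the granulocyte and monocyte median to 0.081. The part of these markers in the results was not tested.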

How the data were processed

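Total RNA was labelled and hybridised to Gene 1.0 ST arrays, per the labels' protocols. The deposited log2 values are a table of 28869 probes by 2 arrays, centred per probe by the authors, as the values show. Baseline, background correction, summarisation, normalization and software are steps not given in the sources used here.

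Probes were named through the platform annotation. Of them, 19310 carried 1 gene symbol, updated by Entrez ID through RefSeq (GRCh38.p14), 1752 carried several and 7807 were not listed. Probes of a gene were averaged, and values without EPO were subtracted from values with EPO. A gene was called at 2-fold. Members, gene lists and the classes of machinery and silent genes, defined by symbol patterns, were chosen with earlier results of these data known. The genes named are all members and, of each further list, the 3 largest differences in size and every gene past 2-fold. Others are marked in the text as named after their values were seen. Cell type markers were erythroid, T and B cell, epithelial and stromal, and granulocyte and monocyte genes. Promoter windows of 300 bases came from RefSeq.

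The averaging and counting code was run on simulated data, which checks the arithmetic and gives no support to any call. Alternatives were other thresholds, scalings, probe rules, the mean and the platform's own symbols. Calculations used Python 3.11.15, NumPy 2.4.6, pandas 2.3.3 and Matplotlib 3.10.9.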

Additional observations from a re-analysis of the deposited data

How the results depend on the processing

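The scaling between the arrays decided the sign of the medians. With the machinery median subtracted, the median turned to -0.16 for all members, -0.091 for the glycolytic enzymes and -0.27 for the other members. Then 0 members were 2-fold higher and 2 lower. ANGPTL4, at percentile 4.82 of all genes and not a member, was also 2-fold lower (-1.08), so genes ranked below it passed too. With the silent median subtracted the medians were 0.66, 0.73 and 0.55, and 10 members were 2-fold higher. PFKFB4, at percentile 85.0 of all genes and 64.9 of machinery genes, fell just short (0.9998), so genes ranked above it passed too. With the median of all genes subtracted, 5 members were 2-fold higher, since KDM3A and P4HA1 then passed. P4HA1, the lowest of the 5, lay at percentile 93.0 of all genes and 83.2 of machinery genes. Exact shares of all genes were not counted at these scalings. At 1.5-fold, 12 members were higher and 2 lower, and at 3-fold 0 were higher. The side of 0 changed in 11 members under the machinery median, 4 under the silent median and 1 under the median of all genes. The probe rules and the platform's own symbols left all 32 members as they were, because each has 1 probe. The mean in place of the median moved no group median by 0.1 or more. No paired analysis was possible because each group has 1 array.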

Other observations

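Branches of sugar metabolism beside glycolysis also held genes past 2-fold as deposited, against 6.19% of all genes, and most of these calls were lost with the machinery median subtracted. Pentose phosphate enzymes, which make NADPH and ribose from glucose, had a median difference of 0.33 over 6 measured of 7 (-0.17 with the machinery median subtracted), and all 6 lay above 0 as deposited. PGD, the second NADPH-forming enzyme, stood at 1.22, from 0.25 with EPO and -0.97 without it, and at 0.72 with the machinery median subtracted. RPE stood at 0.59 (0.093 with it subtracted) and TKT at 0.37 (-0.13).

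Genes of glycogen and other side branches had a median of 0.47 over 14 measured of 15 (-0.027 with the machinery median subtracted), with 3 at least 2-fold higher and 0 lower. UGP2, which makes the sugar donor for glycogen, stood at 1.53, and stayed past 2-fold (1.03) with the machinery median subtracted. PGM2, a phosphopentomutase, stood at 1.16, and at 0.66 with that subtraction. BPGM, which makes the phosphate that loosens the hold of haemoglobin on oxygen in red cells, stood at 1.01, from 0.037 with EPO and -0.97 without it, and at 0.51 with that subtraction.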
